A study of Mus musculus and Homo sapiens with 81 samples.

Results

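B16 is a mouse melanoma line. The comparison described here set Ptpn2-null B16 cells given interferon gamma (IFNg) together with tumour necrosis factor alpha (TNFa) against Ptpn2-null B16 cells given IFNg alone, and its libraries were taken by label: the 3 libraries labelled Ptpn2sg3 with IFNg and TNFa, and the 3 libraries labelled Ptpn2sg3 with IFNg. These 6 libraries were drawn from the 42 B16 libraries of a series of 81 poly(A) RNA-seq libraries. All cells expressed Cas9 and carried a guide delivered by lentivirus, either Ptpn2sg3, directed at Ptpn2, or the non-targeting guide Bro3. The cells with both cytokines received 100 ng/mL IFNg and 10 ng/mL TNFa for 48 h, and the cells with IFNg alone received 100 ng/mL IFNg for 48 h. Another 4 groups of 3 libraries served to place the change: Bro3 control cells with both cytokines, Bro3 control cells with IFNg, Ptpn2-null cells with TNFa, and Ptpn2-null cells with vehicle (PBS with 0.1% BSA), all sampled at 48 h. The questions were what TNFa changed in Ptpn2-null cells that also received IFNg, whether that change differed from the one in control cells, and whether it depended on IFNg.

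IFNg signals through a receptor bound to Janus kinases, whose signal acts on GAS elements and induces IRF1 and, through it, genes of antigen presentation, chemokines and guanylate-binding GTPases. PTPN2 is a phosphatase that removes phosphate from Janus kinases and so limits this signal. TNFa acts through its receptor, a complex of TRADD, TRAF2, RIPK1 and inhibitor-of-apoptosis proteins, and the IKK kinases to release NF-kB from its inhibitors, while the same receptor can start caspase-dependent or necroptotic death. In melanoma cells both cytokines are known to slow growth and to lower the pigment programme that the factor MITF drives.

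Ptpn2 itself, on mouse chromosome 18, had 13.4, 15.4 and 16.4 CPM (read counts scaled to a common library size with TMM factors, the unit of every level below) in Ptpn2-null cells with IFNg and TNFa, and 9.41, 10.5 and 13.5 CPM in Ptpn2-null cells with IFNg. Control cells had 60.3, 60.6 and 60.6 CPM with both cytokines and 51.9, 57.5 and 54.9 CPM with IFNg, so every Ptpn2-null library lay below every control library. The 2 Ptpn2-null groups overlapped, and the log2 fold change between them of 0.42 ± 0.14 (SE) was called at an adjusted p of 0.0093 (edgeR quasi-likelihood test, Benjamini-Hochberg adjustment over 11726 genes). That call ended when replicate 3 with both cytokines was left out, with 0.32, and when replicate 1 with IFNg was left out, with 0.30. Transcript that remains is not a measure of protein, which was not analysed here. Each genotype had a single guide in a single line, so the loss of Ptpn2 and anything else that sets these 2 cell pools apart cannot be told apart. Nothing in the labels ties the 3 libraries of a group to separate cultures, and the spread behind the p-values may in part or all be technical. That spread was estimated for each gene over all 42 B16 libraries. Between pairs of Ptpn2-null libraries, chi-square per degree of freedom was 4.73, 4.95 and 2.09 with both cytokines and 1.91, 2.37 and 1.44 with IFNg. The shared estimate may therefore understate the spread of the group with both cytokines.

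Libraries held 6090118, 5423036 and 5961987 counts with both cytokines and 4830534, 5158083 and 5933420 counts with IFNg alone, and 11726 of 23336 genes passed the filter on low counts. Levels with both cytokines were higher for genes with short transcripts and lower for genes with long transcripts: over 11614 genes with an annotated length, Spearman's rho between the log2 fold change and transcript length was -0.381 across genes, which are not independent replicates. Single libraries also showed a trend with length, and replicate 1 with both cytokines stood furthest from its group. Where removing the trend changed a count of list members stated for this comparison, that is given beside the result. The same holds where it ended, turned or added the call of a named gene in this comparison. The values of the trend follow at the end. Markers of other cells were low or absent. Ptprc, Cd3e, Cd8a and Itgam (leukocytes), Dcn and Lum (fibroblasts), Cdh5 and Kdr (endothelium) and Epcam (epithelium) had 0 counts in all 6 libraries, and the summed level of 14 leukocyte markers was 13.2 to 16.4 CPM with both cytokines and 7.39 to 9.41 CPM with IFNg alone, mostly from Cd68. That of 8 fibroblast markers was 8.21 to 13.2 CPM with both cytokines and 12.4 to 14.9 CPM with IFNg alone, and Pdgfrb, the one of them that passed the filter, was lower (-0.50 ± 0.17; -0.23 and not called with the trend removed). That of 6 endothelial markers was 3.94 to 4.97 CPM against 3.28 to 5.23 CPM, and that of 7 epithelial markers 0.184 to 0.538 CPM against 0.414 to 0.656 CPM. The 1 leukocyte marker that passed the filter was called higher with both cytokines (0.82, and 0.56 with the length trend removed). Cd4, Csf1r and Cd14 had 0 counts with IFNg alone but not with both cytokines. The part of such cells in the results was not tested.

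Most tested genes were called between Ptpn2-null cells with both cytokines and those with IFNg alone. Of the 11726 tested genes, 7237 were called at an adjusted p under 0.05 (61.7%), 3610 of them higher with TNFa (30.8%) and 3627 lower (30.9%). At least 2-fold changes were fewer, with 723 genes higher (6.17%) and 817 lower (6.97%). The median log2 fold change over all tested genes was 0.02. Every count of list members below is to be read against those shares. The 3 libraries with both cytokines lay wholly above or wholly below the 3 with IFNg alone for 7539 tested genes (64.3%). With the length trend removed 6875 genes were called, and 5594 genes were called with the same sign in both fits.

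The 10 largest increases without overlap (mean log2 CPM over the 6 libraries at least 1) were led by C3, Ubd and Slfn2. C3, the central complement component, had 51.6, 52.3 and 56.5 CPM with both cytokines and 0.219, 0 and 0 CPM with IFNg alone. These stood for 856 counts against 1 count, a ratio of 799.5 with an exact binomial 95% counting interval of 143 to 31620. Slfn2, of the Schlafen family, had 831 counts against 3 (ratio 259, interval 88.2 to 1257), and Ccl2, a monocyte chemokine, had 286 counts against 3 (ratio 89.0, interval 30.2 to 434); such intervals cover counting error only. Ubd, a ubiquitin-like modifier (FAT10) induced by the cytokine pair, had 409.9, 373 and 352 CPM with both cytokines and 0.875, 1.03 and 1.98 CPM with IFNg, a log2 fold change of 8.12 ± 0.19. That the groups of these genes did not overlap was a condition of the choice. The other leading increases were Ccl5, Irg1 (an itaconate-producing enzyme), Cxcl9, Ptx3 (a pentraxin), Serpina3g and Tnfrsf9 (4-1BB), with log2 fold changes from 5.37 to 6.41.

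The 10 largest decreases, chosen in the same way, were led by Kank4 and Hmcn1. Kank4 had 0.538, 0.401 and 0.368 CPM with both cytokines and 21.2, 17.2 and 18.7 CPM with IFNg (-5.36 ± 0.35), and Hmcn1 (hemicentin, a matrix protein) had 0.896, 2.60 and 1.47 CPM against 29.97, 35.4 and 32.1 CPM (-4.30 ± 0.23). Separate groups were again a condition of the choice. The other 8 were E2f8 (-3.91), a repressor of the E2F family, Pbk (-3.86), a mitotic kinase, Casc5 (-3.81) and Kntc1 (-3.70) of the kinetochore, the DNA glycosylase gene Neil3 (-3.55), cyclin A gene Ccna2 (-3.54), and the spindle genes Aspm (-3.53) and Fam83d (-3.52).

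**Figure D1:**
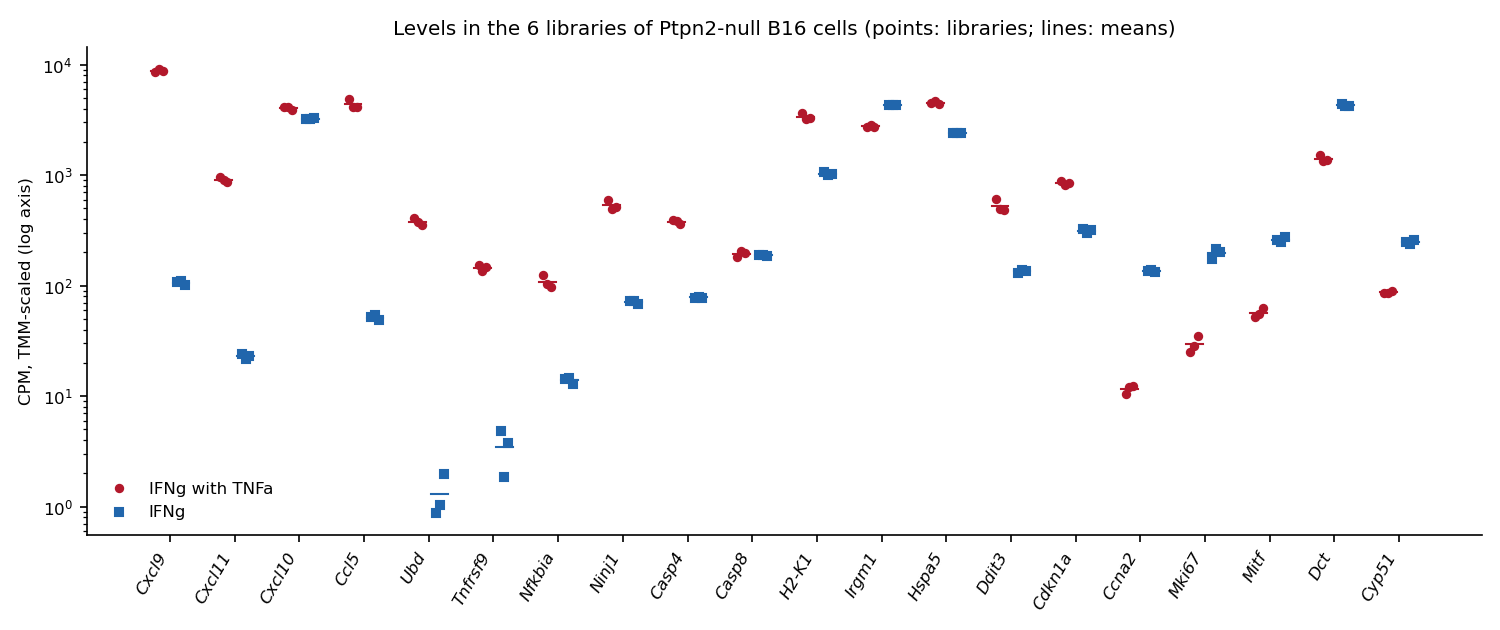
Levels (CPM, TMM-scaled, logarithmic axis) of 20 genes in the 3 Ptpn2-null libraries with IFNg and TNFa (circles) and the 3 with IFNg (squares), with group means as lines. The 2 groups are separate for every plotted gene except Casp8, and the widest gaps are those of Ubd, Cxcl9 and Ccl5.

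Most of the called genes of TNFa signalling and of NF-kB inhibition were higher with TNFa. Of 23 tested genes of TNF receptor signalling, 13 rose and 2 fell, with a median log2 fold change of 0.22. Birc3, an inhibitor-of-apoptosis ubiquitin ligase of the receptor complex, had 57.9, 54.9 and 55.9 CPM with both cytokines and 13.8, 14.3 and 15.1 CPM with IFNg (1.96 ± 0.12), without overlap. Its paralog Birc2 rose by 0.78 ± 0.10, the adaptor Traf2 by 1.12 ± 0.10 and Tnip1, which binds A20, by 1.19 ± 0.06. The receptor gene Tnfrsf1a rose by 0.30 ± 0.05. The kinase gene Ripk1 rose by 0.16 ± 0.06 (edgeR adjusted p = 0.013), a call that ended with no filter and in 5 of the fits that left out a library. The lower calls were Tab3 (-0.51 ± 0.10) and Map3k7 (-0.14 ± 0.06), which encode a kinase complex below the receptor. The call of Map3k7 ended with a replicate block, with DESeq2, with no filter, with only the compared groups, and in 4 of the fits that left out a library. With the length trend removed the call of Tab3 ended (-0.17) and Map3k7 turned to 0.16, so that 17 of the 23 were higher and 0 lower.

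Nfkbia, the inhibitor that holds NF-kB in the cytoplasm and a direct target of it, had 124, 104 and 96.6 CPM with both cytokines and 14.4, 14.5 and 12.8 CPM with IFNg. The log2 fold change was 2.97 ± 0.12 (edgeR adjusted p = 2.1e-28). Nfkbie, another inhibitor, had 182, 189 and 199.7 CPM against 19.7, 18.2 and 21.1 CPM (3.27 ± 0.08). The groups were far apart for both. Among the other genes of this list, Bcl3, a nuclear cofactor of NF-kB, rose by 4.43 ± 0.19, Tnfaip3, which encodes the deubiquitinase A20, by 3.13 ± 0.31, and Relb and Nfkb2, the subunits of the non-canonical pathway, by 2.74 ± 0.11 and 2.14 ± 0.07. Rela rose by 0.77 ± 0.07, Nfkb1 was at -0.10 ± 0.07 without a call, and Rel fell by 0.98 ± 0.26 (2.51, 4.21 and 4.42 CPM against 7.22, 7.65 and 7.03 CPM; -0.61 with the length trend removed). In all 9 of 11 tested members rose and 1 fell. Relb was the 1 gene of the list whose change differed from that in control cells (-0.73 ± 0.20).

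Of 28 cytokine-induced NF-kB target genes, 11 passed the filter on low counts, and since several passed only through the libraries with TNFa, their count is not a result. Tnfrsf9, a costimulatory receptor, had 154, 134 and 146 CPM with both cytokines and 4.81, 1.86 and 3.79 CPM with IFNg (5.37 ± 0.18). Csf1, the macrophage growth factor, had 408, 423 and 450.1 CPM against 215, 207 and 208 CPM (1.02 ± 0.07), and Sod2, the mitochondrial superoxide dismutase, 229, 214 and 207 CPM against 125, 124 and 134 CPM (0.76 ± 0.06). Each was higher in every library with TNFa. Tnf itself had 64 counts against 2, a ratio of 29.9 with a counting interval of 7.94 to 252. Icam1 was below the filter, with 24 counts against 2. The cytokine genes Lif and Il6 were detected at low levels, with Lif at 6.09, 5.21 and 8.46 CPM against 0.219, 0.827 and 0.541 CPM (3.57 ± 0.42) and Il6 at 3.05, 3.005 and 3.13 CPM against 0.875, 0 and 0.180 CPM (3.10 ± 0.58).

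The CXCR3 ligands, which attract activated T cells, differed widely in the size of their change. Cxcl9 (chr5:92321347-92328079, minus strand, GRCm38) had 8513, 9079.5 and 8833 CPM with both cytokines and 108, 109.8 and 102 CPM with IFNg. The log2 fold change was 6.37 ± 0.07 (edgeR adjusted p = 1e-49), and the groups were 82.6-fold apart. Cxcl11 had 955, 912 and 859 CPM against 24.3, 21.9 and 23.3 CPM (5.29 ± 0.08), again with no overlap. Cxcl10 was already high with IFNg alone: it had 4164, 4096 and 3848 CPM with both cytokines and 3235, 3241 and 3263 CPM with IFNg (0.31 ± 0.05). The groups did not overlap, but with the length trend removed the value was 0.08 and the call ended (edgeR adjusted p = 0.14). Ccl5, a T cell chemokine, had 4857, 4102 and 4109 CPM against 51.9, 53.8 and 48.7 CPM (6.41 ± 0.07). Cxcl1, a neutrophil chemokine, was low, with 2.69, 5.61 and 4.23 CPM against 0.438, 0.827 and 0.180 CPM (3.08 ± 0.49), and Cx3cl1 fell to 0.358, 1.40 and 0.552 CPM with both cytokines, against 3.28, 4.34 and 2.88 CPM with IFNg (-2.18 ± 0.45). Only 8 of the 20 chemokine genes listed passed the filter.

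The promoters of Cxcl9, Cxcl10 and Nfkbia are shown because these genes are textbook targets of NF-kB and their log2 fold changes lay far apart (6.37, 0.31 and 2.97). Each sequence is the 250 bases before the gene's start, from RefSeq on GRCm38.p6, read 5′ to 3′ on the gene's strand, with matches in capitals to a kB pattern (GGG, 5 bases of any kind, then CC), an ISRE pattern (TTTC, 2 bases of any kind, then TTTC) or a GAS pattern (TTCNNNGAA) on either strand.
Cxcl9 promoter, chr5:92328080-92328329, minus strand: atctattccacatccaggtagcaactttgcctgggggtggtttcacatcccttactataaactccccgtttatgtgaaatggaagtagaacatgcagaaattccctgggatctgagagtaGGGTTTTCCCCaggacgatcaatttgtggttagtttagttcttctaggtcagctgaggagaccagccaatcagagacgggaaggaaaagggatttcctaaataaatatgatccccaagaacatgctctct
Cxcl10 promoter, chr5:92348890-92349139, minus strand: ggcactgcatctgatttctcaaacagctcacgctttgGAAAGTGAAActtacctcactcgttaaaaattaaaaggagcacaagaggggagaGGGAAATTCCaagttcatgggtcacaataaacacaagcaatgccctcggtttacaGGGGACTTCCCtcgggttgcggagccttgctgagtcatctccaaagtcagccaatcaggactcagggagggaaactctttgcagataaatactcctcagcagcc
Nfkbia promoter, chr12:55492648-55492897, minus strand: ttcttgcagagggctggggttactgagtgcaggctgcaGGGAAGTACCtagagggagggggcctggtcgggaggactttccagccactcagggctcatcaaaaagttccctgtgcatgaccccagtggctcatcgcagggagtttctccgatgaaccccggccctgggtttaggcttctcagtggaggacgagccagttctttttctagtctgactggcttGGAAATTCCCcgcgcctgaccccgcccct
Cxcl9 held overlapping kB matches 130 to 120 bases before its start. Cxcl10 held kB matches at 159 to 150 and, overlapping, 104 to 94 bases before its start, and an ISRE match at 213 to 204 bases. Nfkbia held kB matches at 212 to 203 and 29 to 20 bases. The kB pattern is loose and occurred in 45.8% of 32851 mouse promoters of this length, the GAS pattern in 7.02% and the ISRE pattern in 2.98%, so a match is a description of the letters and not a site. Of the 10 called genes among NF-kB subunits and inhibitors, 8 had a promoter among these 32851, and 7 of these held a kB match in any of their promoters. That is a count of genes and the 45.8% a share of single promoters, so the 2 are not like for like.

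Genes of the IFNg pathway itself did not share a direction. Of 22 genes of the receptor, Janus kinases, STATs and their feedback inhibitors, 12 rose and 6 fell, and with the length trend removed 14 rose and 3 fell. Irf1, a transcription factor that IFNg induces, had 1438, 1413 and 1399 CPM with both cytokines and 1223, 1169.5 and 1214 CPM with IFNg. The groups did not overlap, and Irf1 rose by 0.24 ± 0.04, or 0.10 with the trend removed. Socs1, the main inhibitor of Janus kinases in this pathway, had 207, 172 and 171 CPM against 119, 116 and 106 CPM (0.69 ± 0.08), and Socs3 had 249, 206 and 228 CPM against 167, 158 and 157 CPM (0.50 ± 0.08). All 3 libraries with TNFa exceeded all 3 without it for both inhibitors. Ifngr2, the signalling chain of the receptor, rose by 1.17 ± 0.06, Usp18, which restrains the type I interferon receptor, by 1.43 ± 0.06, and Irf7 by 1.27 ± 0.05. Irf8 had 42.1, 34.7 and 32.8 CPM against 69.4, 70.5 and 68.5 CPM, a decrease (-0.92 ± 0.11). Jak1, Jak2 and Ptpn1 were not called, at -0.02, 0.15 and -0.12; with the trend removed Jak1 and Jak2 were called, at 0.21 and 0.39.

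Antiviral interferon-stimulated genes were mostly higher. Of 29 tested, 21 rose and 2 fell, with a median of 0.73. Isg20, an exonuclease, had 444, 370.0 and 376 CPM with both cytokines and 149, 124 and 124 CPM with IFNg (1.59 ± 0.09). Oasl1, Oas1g and Oas1b, of the oligoadenylate synthetase family, rose by 1.5 to 1.56, although reads of the near-identical Oas1 copies may have been split between them. Mx1 rose by 0.91 ± 0.06 and Rsad2 by 0.79 ± 0.05. The RNA sensor gene Ddx58 had 606, 618 and 643 CPM against 583, 640.4 and 639 CPM, with overlapping groups (0.00 ± 0.05, no call; 0.11 and called with the trend removed). Both decreases, Eif2ak2 (-0.22) and Trim25 (-0.17), were lost with the length trend removed, when 23 genes were higher and 0 lower; Trim25 was then at 0.12. The call of Trim25 also ended with a replicate block, with DESeq2, with only the compared groups, and in 4 of the fits that left out a library.

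The IFNg-induced GTPases split. Of 17 tested GBP and IRG genes, 4 rose and 10 fell. Irgm1, a regulator of this family, had 2703, 2837 and 2741 CPM with both cytokines and 4304, 4297 and 4288 CPM with IFNg (-0.64 ± 0.05). Iigp1 had 1715, 2048 and 1818 CPM against 3249, 3379 and 3373 CPM (-0.84 ± 0.07), and Ifi47 fell by 0.95 ± 0.05 and Gbp7 by 0.95 ± 0.06. Gbp5 moved the other way, with 795, 824 and 798 CPM against 365, 374.9 and 377 CPM (1.11 ± 0.06), as did Gbp8 (1.45 ± 0.11) and Gbp3 (0.34 ± 0.05). Gbp2 and Gbp4, at -0.08 ± 0.05 and -0.08 ± 0.05, were not called, but with the length trend removed they were, at -0.17 and 0.11. Gbp and Irg genes include near-identical copies, and how the counting shared their reads is uncertain. After removal of the length trend 4 rose and 11 fell, and the rise of Igtp (0.21) lost its call (0.06).

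Most MHC class I genes were higher with TNFa. Of 20 tested genes of class I presentation, 15 rose and 2 fell (Erap1, a peptide-trimming protease, and H2-T24), and with the length trend removed 14 rose and 4 fell. The call of H2-T24 (-0.51 ± 0.21) ended with DESeq2, with only the compared groups, and in 4 of the fits that left out a library, with -0.32 without replicate 1 with both cytokines. H2-K1, a classical heavy chain, had 3617, 3229 and 3257 CPM with both cytokines and 1064, 999 and 1016 CPM with IFNg (1.71 ± 0.06). B2m, the light chain, had 5957, 5931 and 5633 CPM against 3262, 3172 and 3282 CPM (0.85 ± 0.04; 0.54 with the length trend removed). H2-D1 rose by 1.32 ± 0.05, the transporter genes Tap2 and Tap1 by 0.91 ± 0.05 and 0.37 ± 0.05, and the chaperone gene Tapbp by 0.75 ± 0.04. Nlrc5, the class I transactivator, was not called (-0.13 ± 0.07), but turned to 0.24 and was called with the trend removed. The H2 genes are paralogs whose reads may be shared. The class II genes diverged: Ciita, their transactivator, had 2.69, 2.60 and 1.66 CPM with both cytokines and 14.4, 12.6 and 10.5 CPM with IFNg (-2.41 ± 0.26), while Cd74, the invariant chain, had 264, 218 and 225 CPM against 8.75, 7.86 and 10.1 CPM (4.72 ± 0.15). Both pairs of groups were separate. Of 8 tested class II genes, 3 rose and 2 fell, or 2 and 4 with the length trend removed. H2-Aa was near the limit of detection, with 0.736 to 1.43 CPM with both cytokines and 0.827 to 1.98 CPM with IFNg, and was not called. Among ligands of T and NK cells, Cd274 (PD-L1) had 534, 552 and 590.1 CPM against 452, 447 and 452 CPM (0.31 ± 0.06), Lgals9 rose by 1.24 ± 0.05, Pvr by 0.90 ± 0.07 and Cd47, which inhibits phagocytosis, by 0.77 ± 0.05, and Cd276 fell (-0.79 ± 0.25).

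Genes of cell death moved in different directions. Casp8, the initiator caspase below TNF and Fas receptors, had 183, 204 and 198 CPM with both cytokines and 189.9, 190.0 and 184 CPM with IFNg, and Zbp1, a sensor of the necroptotic route, 735, 708 and 705 CPM against 719, 677 and 709 CPM. The groups overlapped for both and neither was called (0.05 ± 0.06 and 0.03 ± 0.05); with the length trend removed Zbp1 was called at -0.12. Fas, the death receptor, had 15.4, 12.6 and 12.5 CPM against 0.656, 0.620 and 0.541 CPM (4.44 ± 0.34). Casp4, the inflammatory caspase, had 395, 383 and 358 CPM against 78.1, 79.0 and 77.7 CPM (2.27 ± 0.07), and Ninj1, a mediator of membrane rupture, 599, 493 and 519 CPM against 73.1, 73.4 and 68.9 CPM (2.90 ± 0.08). All 3 genes were higher in every library with TNFa. The pore-forming Gsdmd rose by 1.0 ± 0.08, the necroptosis effector Mlkl by 0.32 ± 0.05, Il18 by 1.44 ± 0.13 and Bbc3 (PUMA) by 1.26 ± 0.15. Gsdmc, another gasdermin, had 15.2, 19.4 and 20.2 CPM with both cytokines and 76.4, 78.4 and 91.9 CPM with IFNg (-2.17 ± 0.09). The survival genes Bcl2 (24.7, 36.9 and 39.0 CPM against 59.9, 63.3 and 64.0 CPM; -0.90 ± 0.10), Xiap (-0.70 ± 0.14) and Mcl1 (-0.36 ± 0.05) fell, while Bcl2l1 rose by 0.37 ± 0.08. With the length trend removed Bcl2 was at -0.54 and Xiap at -0.35. In all, 6 of 15 tested caspase, gasdermin and necroptosis genes rose and 3 fell, or 7 and 5 with the length trend removed, and 13 of 18 death receptor and BCL2 family genes rose and 4 fell. Cell viability was not measured in these files.

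Proliferation genes fell on adding TNFa. All 28 genes listed for mitosis and the spindle fell, with a median of -2.66, and 27 of 28 genes of DNA replication fell, with a median of -1.89, Rfc3 being the one not called (0.17 ± 0.08). Mki67, the proliferation marker Ki-67, had 25.3, 28.6 and 35.1 CPM with both cytokines and 176, 215 and 203 CPM with IFNg (-2.74 ± 0.08, edgeR adjusted p = 7.2e-32). Ccna2 had 10.6, 12.2 and 12.3 CPM against 135, 139 and 134 CPM (-3.54 ± 0.10). For both genes every library with TNFa lay far below every library without it. Among replication genes, Cdc6, which loads the helicase, had 2.51, 3.41 and 2.76 CPM against 29.3, 28.3 and 29.9 CPM (-3.33 ± 0.15), Rrm2, of ribonucleotide reductase, fell by 3.10 ± 0.06, and the helicase subunit Mcm5 had 35.3, 35.5 and 30.7 CPM against 228, 209 and 218 CPM (-2.69 ± 0.06). The decreases were smallest for Tpx2 (-0.43 ± 0.05) and Prc1 (-0.58 ± 0.07), both spindle proteins. These counts were the same with the length trend removed and without replicate 1 with both cytokines. In bulk RNA, fewer cycling cells and less of these transcripts per cell cannot be told apart.

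The promoter of Cdk1, the mitotic kinase gene that fell by 1.93 ± 0.07, is shown with its matches to an E2F pattern (TTTNNCGC, either strand) in capitals, from RefSeq on GRCm38.p6.
Cdk1 promoter, chr10:69352913-69353162, minus strand: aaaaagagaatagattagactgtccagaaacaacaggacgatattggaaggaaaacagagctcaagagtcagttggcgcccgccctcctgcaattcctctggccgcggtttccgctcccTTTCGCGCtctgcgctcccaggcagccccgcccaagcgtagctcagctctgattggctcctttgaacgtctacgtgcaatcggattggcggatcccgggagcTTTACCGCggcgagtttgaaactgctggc
The matches lay 131 to 124 and 29 to 22 bases before the start. The pattern was found in 4.28% of all single promoters of this length. By gene, 8 of the 22 called DNA replication genes with a promoter sequence held it in any of their promoters, a description of letters only.

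The inhibitor Cdkn1a (p21) had 893, 819 and 847 CPM with both cytokines and 325, 301 and 319.6 CPM with IFNg (1.44 ± 0.05), and Mdm2, which like it is induced by p53, 472, 528 and 483 CPM against 187, 174 and 196 CPM (1.41 ± 0.05). Both were higher in every library with TNFa. Plk2 rose by 2.39 ± 0.11, Gadd45a by 2.07 ± 0.10 and Gadd45b by 1.76 ± 0.09. Not all p53 targets followed: Sesn1 fell by 0.64 ± 0.15, and Ei24 and Zmat3 were not called (-0.11 and -0.07), though with the length trend removed both were, at -0.22 and 0.31. Lmnb1, a lamin whose loss is a known mark of growth arrest, had 17.7, 12.8 and 11.96 CPM against 82.3, 79.2 and 82.9 CPM (-2.52 ± 0.09). Of 21 tested cell cycle inhibitors and p53 targets, 12 rose and 5 fell, with a median of 0.24; with the length trend removed 14 rose and 6 fell, with a median of 0.49.

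Most pigment cell genes fell while Sox10 rose. Mitf, the master regulator of melanocytes, had 52.0, 55.3 and 63.3 CPM with both cytokines and 256, 250.4 and 273 CPM with IFNg (-2.19 ± 0.07). Its targets Dct, a melanin synthesis enzyme, and Trpm1 had 1511, 1331 and 1374 CPM against 4389, 4192 and 4207 CPM (-1.60 ± 0.04) and 3.76, 2.80 and 3.31 CPM against 25.2, 20.3 and 20.5 CPM (-2.72 ± 0.15). No group overlapped for these genes. Tyr, tyrosinase, fell by 1.58 ± 0.11, Tyrp1 by 1.28 ± 0.06 and Pmel by 1.37 ± 0.04, and in all 17 of 20 tested melanocyte genes fell. Sox10, a neural crest factor that lies above Mitf, had 849.7, 796 and 839.9 CPM against 579.5, 541 and 583 CPM, an increase (0.54 ± 0.05), and Mc1r rose by 0.23 ± 0.05. Of AP-1, mesenchymal and dedifferentiation genes, 9 of 16 tested rose and 3 fell, or 10 and 5 with the length trend removed. Axl, a receptor tyrosine kinase, had 717, 791 and 792 CPM against 114, 122 and 137 CPM (2.62 ± 0.07), and Ngfr, a neural crest receptor, 117, 111 and 127 CPM against 6.34, 4.14 and 4.15 CPM (4.61 ± 0.14). Of the AP-1 subunit genes Junb rose by 1.84 ± 0.08, Fosl2 by 1.16 ± 0.07 and Jun by 0.98 ± 0.06, and Snai2, a mesenchymal factor, by 1.67 ± 0.17. Cdh2 (-1.34 ± 0.12) and Zeb2 (-0.84 ± 0.11) fell.

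**Figure D2:**
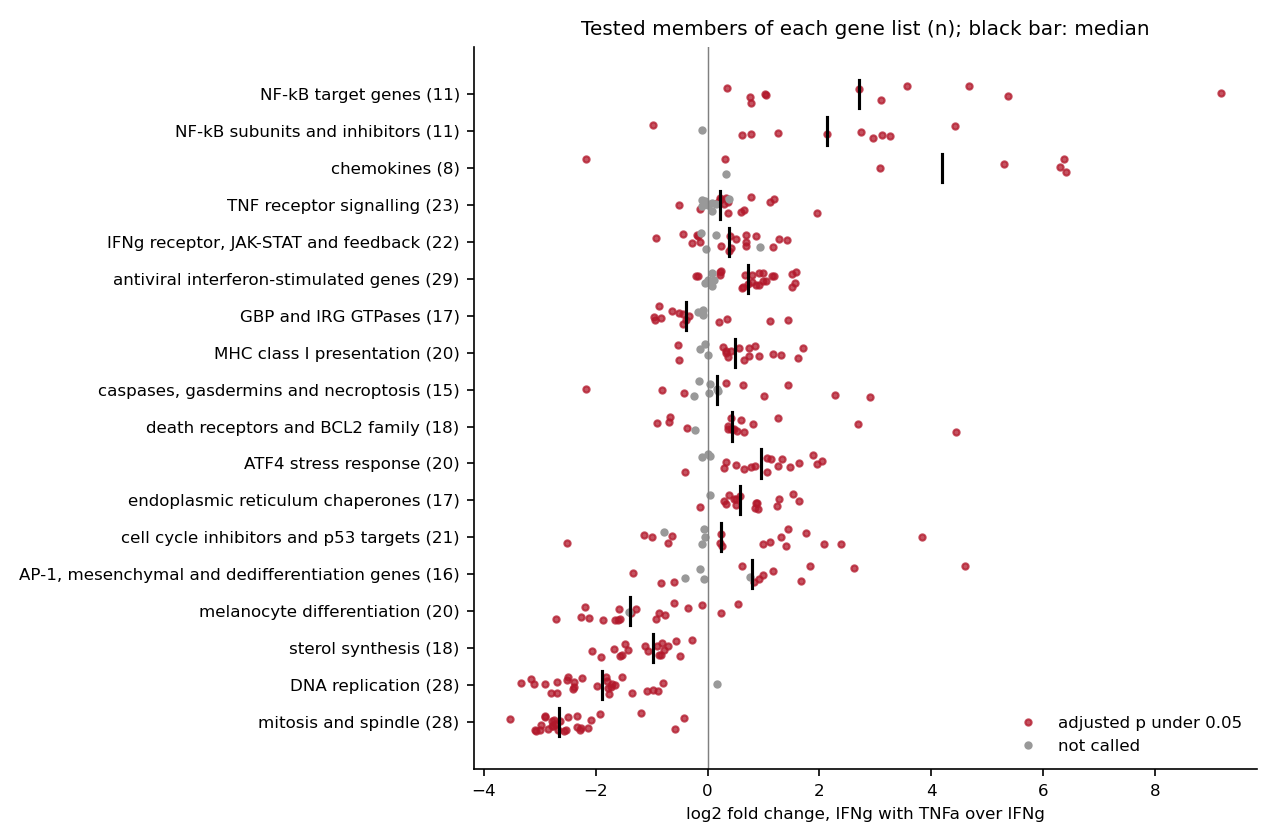
Log2 fold change (IFNg with TNFa over IFNg, Ptpn2-null cells) of every tested member of 18 gene lists, with the number tested in parentheses. Red points are genes at an adjusted p under 0.05, grey points genes not called, and the black bar is the list median, lowest for mitosis and spindle at -2.66. Only 8 chemokine and 11 NF-kB target genes passed the filter, several through the libraries with TNFa, and genes with at most 3 counts in IFNg (C3, Ccl2, Tnf) are drawn at fitted values that are no bound.

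Most stress genes of the ATF4 pathway and most chaperones of the endoplasmic reticulum rose. Ddit3 (CHOP), a factor induced under ATF4, had 612, 491 and 481 CPM with both cytokines and 130.4, 139.8 and 136 CPM with IFNg (1.97 ± 0.13), and Trib3, its target, 473, 423 and 432 CPM against 154, 153 and 172 CPM (1.47 ± 0.10). Both were separate between groups. Of 20 tested genes of this response, 16 rose and 1 fell, the amino acid transporter Slc7a5 (-0.40 ± 0.06), while the serine synthesis gene Psat1 was not called (0.01 ± 0.05). With the length trend removed 16 rose and 2 fell. Hspa5 (BiP), the main chaperone of the compartment, had 4453, 4678 and 4441 CPM against 2409, 2421 and 2420.2 CPM (0.90 ± 0.04). Herpud1, which takes part in degrading misfolded proteins, had 158, 149 and 142 CPM against 51.6, 51.9 and 52.6 CPM (1.53 ± 0.08). Again no group overlapped. Dnajb9 rose by 1.63 ± 0.10, Creld2 by 1.28 ± 0.08, Sdf2l1 by 1.24 ± 0.06 and Syvn1, a ubiquitin ligase of this compartment, by 0.86 ± 0.06. Of 17 chaperone genes 15 rose, Canx was not called, and Dnajc3 fell by 0.13 ± 0.05, a call that ended with only the compared groups and in 3 of the fits that left out a library. With the length trend removed Dnajc3 turned to 0.12, and all 17 were higher.

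The promoters of Creld2 and Syvn1 are shown because the pattern of the endoplasmic reticulum stress element (ERSE: CCAAT, 9 bases of any kind, then CCACG, either strand, in capitals) was present in both, and both genes rose. Sequences are from RefSeq on GRCm38.p6.
Creld2 promoter, chr15:88819396-88819645, plus strand: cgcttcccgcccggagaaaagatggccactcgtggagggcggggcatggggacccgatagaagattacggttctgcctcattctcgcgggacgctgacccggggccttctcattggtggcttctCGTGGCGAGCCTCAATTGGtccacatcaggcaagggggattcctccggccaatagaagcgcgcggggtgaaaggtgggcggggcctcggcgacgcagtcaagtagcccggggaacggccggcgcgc
Syvn1 promoter, chr19:6046326-6046575, plus strand: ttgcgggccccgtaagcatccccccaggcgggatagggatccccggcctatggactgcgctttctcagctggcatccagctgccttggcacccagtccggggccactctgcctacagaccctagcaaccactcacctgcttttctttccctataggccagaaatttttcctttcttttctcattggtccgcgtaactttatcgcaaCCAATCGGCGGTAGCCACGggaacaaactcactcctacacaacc
The match lay 126 to 108 bases before the start of Creld2 on the opposite strand, and 44 to 26 bases before the start of Syvn1 on the same strand. The pattern occurred in 37 of 32851 single promoters (0.113%). By gene, 7 of the 14 called chaperone genes with a promoter sequence held it in any of their promoters. The chaperones were listed for their known role, which includes this element, so the share is a description.

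Sterol synthesis genes fell. All 18 tested genes were lower, with a median of -0.98. Cyp51, the lanosterol demethylase, had 84.9, 86.3 and 89.1 CPM with both cytokines and 251, 239 and 258 CPM with IFNg (-1.52 ± 0.05), and Idi1, an isomerase of the early pathway, 0.717, 1.80 and 1.10 CPM against 5.69, 4.76 and 4.87 CPM (-2.08 ± 0.36). The groups were separate for both. Insig1, a sterol sensor, fell by 1.57 ± 0.08 and Srebf2, the factor that controls the pathway, by 0.82 ± 0.06. Glycolysis genes showed no common direction (4 of 17 higher and 6 lower, or 4 and 7 with the length trend removed): Ldha fell by 0.76 ± 0.07, Hk1 rose by 0.36 ± 0.06, and Hk2, Pfkp and Aldoa were not called (0.14 and -0.20, called, for Hk2 and Aldoa with the trend removed). Without replicate 1 with both cytokines 2 were higher. Nos2, the inducible nitric oxide synthase, was low but separate, with 7.35, 8.21 and 9.94 CPM against 0.438, 0.207 and 0.360 CPM (4.57 ± 0.40). Hmox1, a target of NRF2, rose by 0.67 ± 0.07, while its other targets Txnrd1 (-0.37 ± 0.04) and Gclc (-0.61 ± 0.08) fell and Nqo1 was not called. Of 19 tested matrix genes 6 rose and 8 fell (6 and 7 with the trend removed), with a median of -0.20. Tgm2, a crosslinking enzyme, had 128, 125 and 129 CPM against 19.7, 23.99 and 20.4 CPM (2.58 ± 0.10), Mmp2 rose by 2.15 ± 0.16, Timp1 by 1.81 ± 0.11 and Fn1 by 0.84 ± 0.08, and the basement membrane collagen genes Col4a1 (-1.23 ± 0.15) and Col4a2 (-0.86 ± 0.13) and the collagen gene Col1a2 (-2.48 ± 0.51) fell, as did Fbn1, of microfibrils (-1.28 ± 0.29).

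The same addition of TNFa to IFNg in control cells was compared gene by gene, as the change in Ptpn2-null cells minus the change in control cells. The control pair had 7210 of 11726 genes called (61.5%), 3665 higher (31.3%) and 3545 lower (30.2%), with 866 at least 2-fold higher (7.39%) and 711 at least 2-fold lower (6.06%). The difference between guides was called for 1295 genes (11.0%), 396 of them higher in Ptpn2-null cells (3.38%) and 899 lower (7.67%). It was at least 2-fold for 34 higher genes (0.290%) and 178 lower ones (1.52%). By direction, 380 of the 1295 changed the same way with a larger change in Ptpn2-null cells, 274 the same way with a smaller one, and 85 in opposite directions. A further 258 were called in Ptpn2-null cells and not in control cells, 296 in control cells and not in Ptpn2-null cells, and 2 in neither.

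Most mitosis genes and 14 of 28 replication genes fell further in Ptpn2-null cells. For mitosis and the spindle the difference was called lower for 21 of 28 genes and higher for 3, and for DNA replication lower for 14 of 28 and higher for 2. Ccna2 had 10.6, 12.2 and 12.3 CPM with both cytokines and 135, 139 and 134 CPM with IFNg in Ptpn2-null cells, and 38.2, 42.4 and 42.1 CPM with both and 202, 206 and 188 CPM with IFNg in control cells. The log2 fold changes were -3.54 ± 0.10 in Ptpn2-null cells and -2.28 ± 0.08 in control cells, a difference of -1.26 ± 0.14 (edgeR adjusted p = 3.5e-10). For Cdc6 the difference was -1.64 ± 0.20, for Rrm2 -1.11 ± 0.08 and for Mki67 -0.49 ± 0.11. Tpx2 and Prc1 went the other way, having fallen less in Ptpn2-null cells (-0.43 against -1.27 and -0.58 against -1.30 in control cells; differences 0.84 ± 0.08 and 0.72 ± 0.09).

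Most chaperone genes had a higher change in Ptpn2-null cells. The difference was called higher for 14 of 17 and lower for 0. Hspa5 had 4524 ± 133 CPM with both cytokines and 2417 ± 6.60 CPM with IFNg in Ptpn2-null cells (mean ± SD, n = 3 each), and 2868 ± 32.7 CPM with both and 2419 ± 32.5 CPM with IFNg in control cells. Its log2 fold change was 0.90 ± 0.04 in Ptpn2-null cells and 0.25 ± 0.04 in control cells, a difference of 0.66 ± 0.06 (edgeR adjusted p = 3.7e-13). Sdf2l1 differed by 0.94 ± 0.09, Herpud1 by 0.88 ± 0.12 and Trib3 by 0.73 ± 0.15, while Ddit3 rose about as far with either guide (1.97 ± 0.13 in Ptpn2-null cells, 2.13 ± 0.13 in control cells; difference -0.16 ± 0.18, no call).

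Several interferon-induced genes rose less in Ptpn2-null cells, where IFNg alone had left them higher. Among antiviral genes the difference was called lower for 15 of 29 and higher for 1, Cmpk2 (0.65 ± 0.11). Cxcl10 had 4164, 4096 and 3848 CPM with both cytokines and 3235, 3241 and 3263 CPM with IFNg in Ptpn2-null cells, and 3491, 3585 and 3589 CPM with both and 1196, 1219 and 1187 CPM with IFNg in control cells. Every Ptpn2-null library was above every control library under the same treatment, by more with IFNg alone than with both cytokines, and the difference between guides was -1.25 ± 0.07 (edgeR adjusted p = 3.7e-20). Cxcl11 had 909 ± 48.3 and 23.2 ± 1.19 CPM in Ptpn2-null cells with both and with IFNg, and 349.8 ± 22.05 and 1.60 ± 0.657 CPM in control cells (SD, n = 3 each), a difference of -2.42 ± 0.23. Cxcl9 differed by -0.93 ± 0.14 and Ccl5 by -0.45 ± 0.11. Ifi205 (-3.11 ± 0.33) and Ly6a (-3.01 ± 0.55) showed the same order of levels; both belong to families of close paralogs.

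Levels of Ly6a were 368 ± 41.1 CPM with both cytokines and 66.5 ± 5.14 CPM with IFNg in Ptpn2-null cells, and 24.5 ± 3.05 CPM with both and 0.486 ± 0.841 CPM with IFNg in control cells (SD, n = 3 each). In control cells with IFNg, 1 of the 3 libraries held all of its counts; without that library (replicate 2) the group is at 0 and the fitted difference is no bound. The feedback inhibitors took the other direction: Socs1 had 183 ± 20.5 and 114 ± 6.96 CPM in Ptpn2-null cells, and 64.4 ± 8.27 and 56.9 ± 5.27 CPM in control cells, with a difference of 0.51 ± 0.13. Socs3 rose in Ptpn2-null cells (0.50 ± 0.08) and was not called in control cells (-0.12 ± 0.09), a difference of 0.62 ± 0.12. Zbp1 differed by -0.36 ± 0.07.

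Mitf fell further in Ptpn2-null cells. Its levels were 52.0, 55.3 and 63.3 CPM with both cytokines and 256, 250.4 and 273 CPM with IFNg in Ptpn2-null cells, and 273, 245 and 252 CPM with both and 469, 444 and 468 CPM with IFNg in control cells. The difference was -1.35 ± 0.09 (edgeR adjusted p = 9.7e-18). Dct (-0.70 ± 0.06) and Gpnmb (-0.67 ± 0.05) went with it, and over the melanocyte list the difference was lower for 8 of 20 genes and higher for 2. Gsdmc fell in Ptpn2-null cells and was not called in control cells (0.14 ± 0.07), a difference of -2.31 ± 0.11. Bcl2 differed by -1.17 ± 0.13, falling in Ptpn2-null cells and rising in control cells (0.27 ± 0.09), and Ninj1 by 0.84 ± 0.11.

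**Figure D3:**
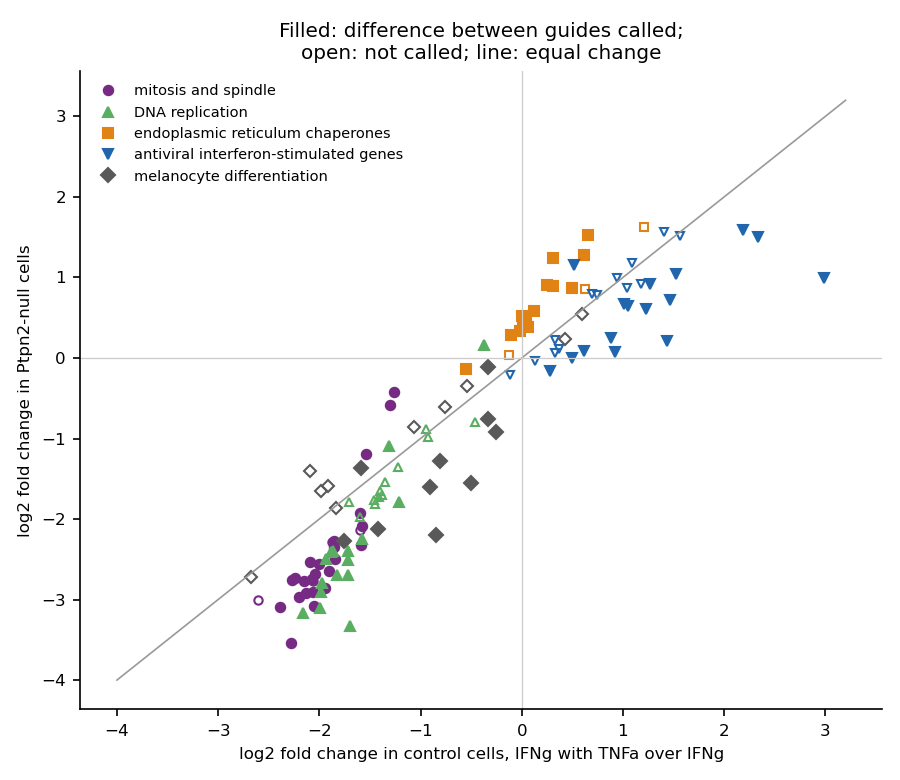
Log2 fold change on adding TNFa to IFNg in Ptpn2-null cells (vertical) against control cells (horizontal) for the tested members of 5 lists, with filled symbols where the difference between guides was called and a line at equal change. Most mitosis genes lie below the line (21 of 28 called lower) and most chaperone genes above it (14 of 17 called higher).

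The 85 genes that changed in opposite directions included Emp1, Ppp1r16b, Ppm1e and Dhrs3. Emp1, an epithelial membrane protein, had 40.5, 42.1 and 53.5 CPM with both cytokines and 12.3, 14.5 and 14.4 CPM with IFNg in Ptpn2-null cells, and 3.13, 4.37 and 3.07 CPM with both and 6.47, 7.12 and 8.45 CPM with IFNg in control cells. It rose by 1.72 ± 0.14 in Ptpn2-null cells and fell by 1.04 ± 0.25 in control cells, a difference of 2.76 ± 0.29. Ppp1r16b rose in Ptpn2-null cells (1.1) and fell in control cells (-1.02). Ppm1e, a phosphatase gene, and Dhrs3, a retinal reductase gene, fell in Ptpn2-null cells (-1.27 and -1.19) and rose in control cells (1.81 and 1.28). Adam8, a metalloprotease gene, reached 90.5, 88.1 and 85.4 CPM with both cytokines, against 4.81, 4.76 and 4.51 CPM with IFNg, in Ptpn2-null cells, and 2.50, 2.55 and 2.53 CPM against 0.663, 0.810 and 1.03 CPM in control cells (2.63 ± 0.50). It was higher with TNFa in every library of either guide.

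Whether the change depended on IFNg was asked by subtracting the effect of TNFa over vehicle in Ptpn2-null cells. TNFa alone had 5104 of 11726 genes called (43.5%), 2473 higher (21.1%) and 2631 lower (22.4%), with 237 at least 2-fold higher (2.02%) and 191 at least 2-fold lower (1.63%). The 2 effects differed for 3210 genes (27.4%), 1357 of them higher in the presence of IFNg (11.6%) and 1853 lower (15.8%). Differences of at least 2-fold numbered 240 higher (2.05%) and 569 lower (4.85%). Genes with at most 3 counts in any of the 4 groups, among them Cxcl9, Cxcl11, Ubd and Nos2, have no usable value here and are not given.

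Growth genes were lower with TNFa in the presence of IFNg by more than without it. The difference was called lower for all 28 mitosis genes and for 27 of 28 replication genes, and TNFa alone lowered 10 of the 28 mitosis genes and raised 4, with a median of -0.03. Mki67 had 25.3, 28.6 and 35.1 CPM with both cytokines, 176, 215 and 203 CPM with IFNg, 781, 786 and 806 CPM with TNFa and 947, 949 and 940.0 CPM with vehicle. The difference between the 2 effects of TNFa was -2.48 ± 0.10 (edgeR adjusted p = 1.7e-25), and the groups were separate in that order from low to high. For Ccna2 it was -3.27 ± 0.12, for Pbk -3.73 ± 0.20 and for Neil3 -3.65 ± 0.27. Sterol genes followed, with 18 of 18 lower; Hmgcs1 had 71.5 ± 3.75 CPM with both, 149 ± 7.08 CPM with IFNg, 289.8 ± 9.24 CPM with TNFa and 269 ± 13.96 CPM with vehicle (SD, n = 3 each). Melanocyte genes were lower in 15 of 20, Dct by -1.55 ± 0.06 and Mitf by -1.37 ± 0.09. Kank4 also fell further with IFNg (-4.52 ± 0.40).

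Most stress genes had a higher change with TNFa where IFNg was present. The difference was called higher for 16 of 17 chaperone genes and lower for 0, and for 15 of 20 ATF4 genes with 1 lower. Herpud1 had 158, 149 and 142 CPM with both cytokines, 51.6, 51.9 and 52.6 CPM with IFNg, 97.6, 105 and 115 CPM with TNFa and 97.5, 102 and 109 CPM with vehicle. Only the group with both cytokines stood above the vehicle group, and the difference was 1.49 ± 0.12 (edgeR adjusted p = 1.4e-15). Ddit3 differed by 1.29 ± 0.20, Cdkn1a by 1.03 ± 0.08 and Mdm2 by 1.46 ± 0.08. Ninj1 had 599, 493 and 519 CPM with both, 73.1, 73.4 and 68.9 CPM with IFNg, 55.2, 55.1 and 64.2 CPM with TNFa and 51.5, 41.2 and 43.3 CPM with vehicle (2.56 ± 0.12).

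Ccl5, Nfkbia and C1s rose with TNFa either way, and further with IFNg. Ccl5 had 4356 ± 434 CPM with both cytokines, 51.4 ± 2.57 CPM with IFNg, 13.1 ± 1.34 CPM with TNFa and 2.18 ± 0.138 CPM with vehicle (SD, n = 3 each). Its difference was 3.83 ± 0.30. Nfkbia rose by 2.97 ± 0.12 with IFNg and by 1.47 ± 0.12 without (1.5 ± 0.18), and C1s, a complement protease gene, by 4.37 ± 0.08 and 1.23 ± 0.18 (3.14 ± 0.22). Fyb, an adaptor gene of T cells, Il4ra, an interleukin receptor gene, and Cdsn rose with IFNg and were not called with TNFa alone (4.29 ± 0.62, 3.82 ± 0.55 and 3.48 ± 0.57). The IFNg-induced genes Cxcl10 (-1.63 ± 0.10), Irf1 (-0.72 ± 0.10) and B2m (-0.51 ± 0.07) had a smaller or more negative change with TNFa in the presence of IFNg. Loxl4, a lysyl oxidase gene, differed by 2.80 ± 0.87, a call that ended without vehicle replicate 3 (2.24). Casp8 was not called for either difference.

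**Figure D4:**
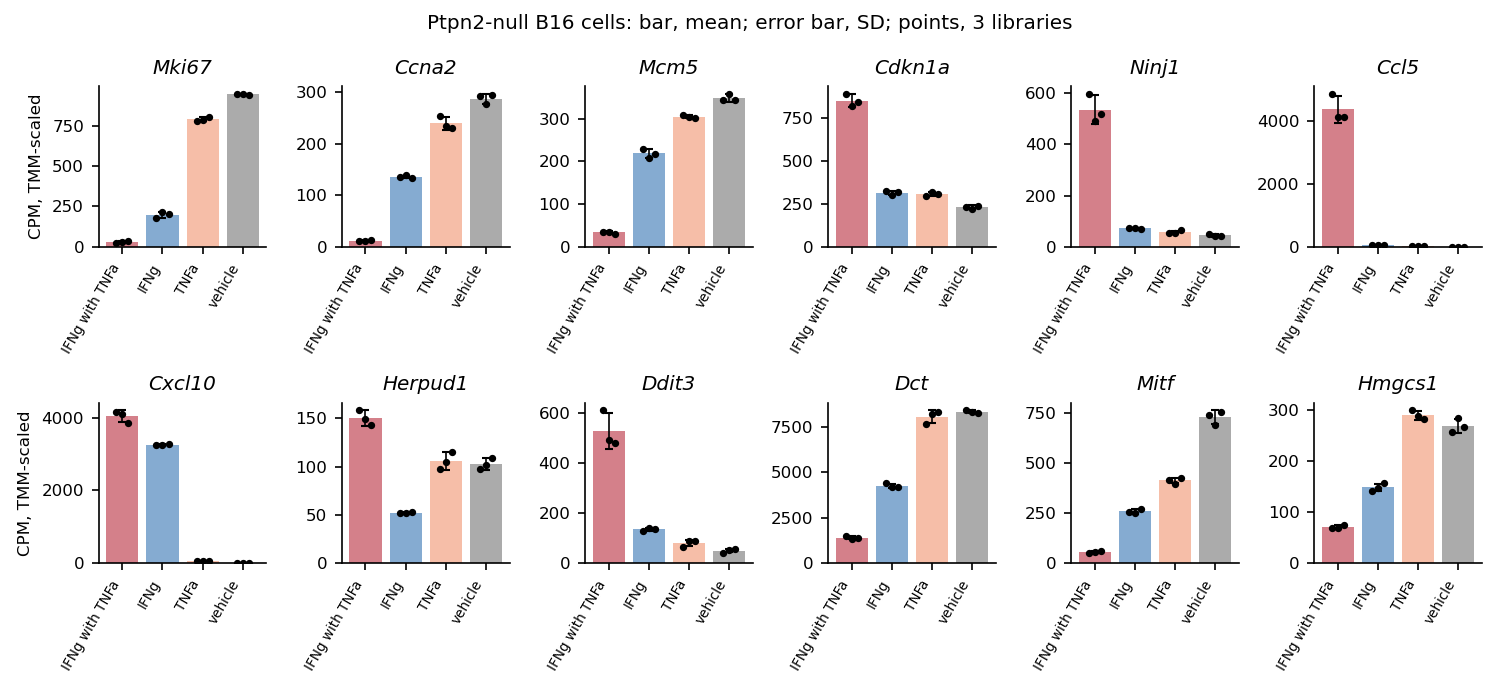
Levels (CPM, TMM-scaled, linear axis from 0) of 12 genes in Ptpn2-null cells with IFNg and TNFa, IFNg, TNFa and vehicle, as means (bars), SD (error bars) and 3 libraries (points). Mki67, Ccna2 and Mcm5 are lowest with both cytokines, and Ninj1, Ccl5, Herpud1 and Ddit3 are highest with both.

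The length trend was examined bin by bin. In the bin of shortest transcripts (66 to 1435 nt) the median log2 fold change was 0.343, and in the bin of longest transcripts (6247 to 123179 nt) it was -0.363, with the bins between in order. Relative to the mean of all B16 libraries, the rho of a library's levels with length was -0.318, -0.177 and -0.148 with both cytokines, and 0.101, 0.214 and 0.189 with IFNg alone. The groups did not overlap, and within its own group replicate 1 with both cytokines stood at -0.469, against 0.216 and 0.385 for the other 2. The trend was not particular to this pair: it was -0.344 for the control pair and -0.527 for TNFa over vehicle in Ptpn2-null cells, and -0.0787 for IFNg over vehicle. For the 2 differences between changes it was -0.0781 (guides) and -0.0256 (IFNg). With a smooth trend on length removed from each library, 6875 genes were called, 5664 of them also called before and 5594 with the same sign. What made the trend was not tested.

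**Figure D5:**
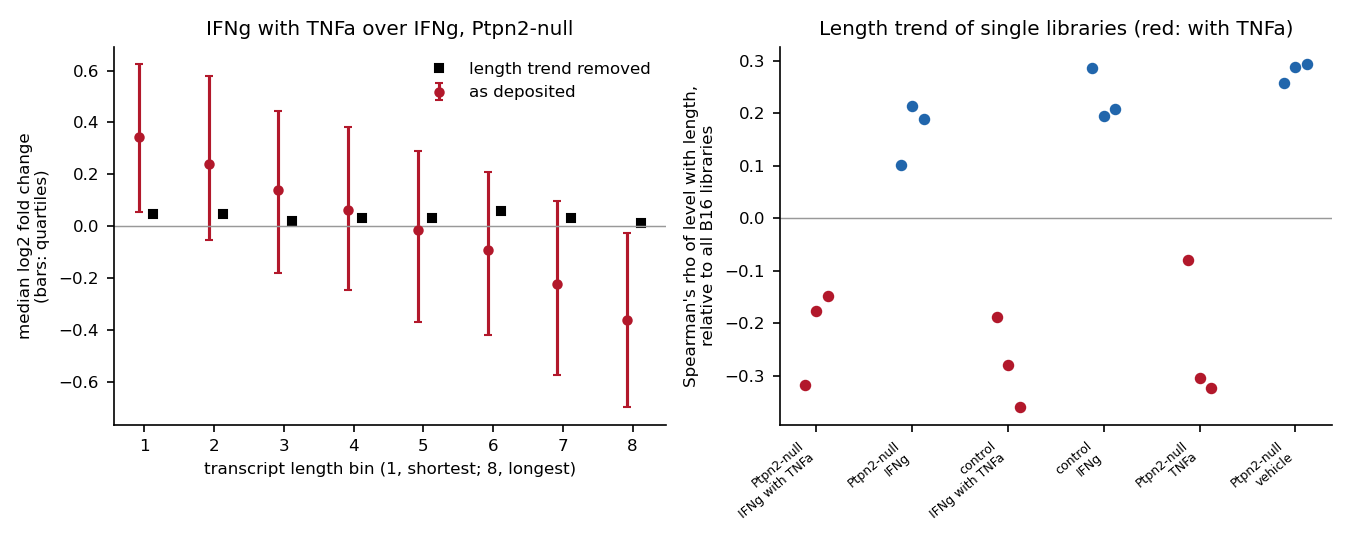
Left, median log2 fold change (bars, quartiles) in 8 bins of transcript length, from the TMM-scaled fit (labelled as deposited) and with the trend removed. Right, Spearman's rho of each plotted library's levels with length relative to all B16 libraries. The medians run from 0.343 in the shortest bin to -0.363 in the longest. Every plotted library with TNFa has a negative rho, and libraries with IFNb are not plotted.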

How the data were processed

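Poly(A) RNA from B16 cells was sequenced with paired 37 bp reads from a directional library kit, per the labels' protocols. The authors deposited raw counts for each gene. The tools named in the submitters' processing notes are HTSeq 0.6.1p1, Bowtie2 2.2.4, Trimmomatic 0.33, bcl2fastq 2.17.1.14 and DESeq2, with builds mm10 and hg19. The annotation, like the strand setting of the counting, was not given in the sources used here, so reads of overlapping genes (Psmb9 and Tap1 among them) may have been shared.

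Counts of all 42 B16 libraries (14 groups of 3) were filtered with filterByExpr, which kept 11726 of 23336 genes and 99.92% of counts. They were scaled by TMM and fitted with 1 mean per group in edgeR 4.0.16 (robust quasi-likelihood, R 4.3.3), with Benjamini-Hochberg adjustment across the tested genes and a call at an adjusted p under 0.05. SE is the absolute log2 fold change over the square root of F. The difference between guides and the difference with and without IFNg were contrasts of the same fit, and they share libraries with the first comparison. Depth was 3498860 to 6432517 counts per B16 library. Alternatives were DESeq2 1.42.0, RLE size factors, no filter, only the compared groups, a replicate block, leaving out each library, and removal of a spline (4 df) on transcript length from GENCODE M21, matched for 10606 genes by symbol and 1008 by older symbol. A block with only the compared groups was added after the data were seen. On simulated counts for the first comparison, 95 of 100 genes changed 2-fold and 79 of 100 changed 1.5-fold were recovered, with 7 false calls among 181. For the difference between guides 85 and 56 of 100 were recovered, and for the difference with and without IFNg 80 and 56. The simulation held no length trend and far fewer changed genes than were called in the data. It also gave every group the same spread per gene and left genes of the lowest levels out of those changed. These rates therefore need not hold in the data.

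The comparison and the gene lists were chosen with earlier results of these data known; within the comparison, libraries were assigned by label. Genes were named by rule: Ptpn2, a set of 33 genes, the 10 largest called changes per direction with no overlap and a mean log2 CPM of at least 1, the 8 largest per direction of each difference, and up to 4 called members per direction of each list. Unnamed genes were passed over. Other list members named in the text were chosen after their values were seen. Some genes that the rule names are not reported here.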

Additional observations from a re-analysis of the deposited data

Results flagged for a closer look

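The change on adding TNFa to IFNg differed between Ptpn2-null and control cells for 1295 genes, by a test of the difference itself in edgeR. Every value below is the log2 fold change in Ptpn2-null cells minus that in control cells.

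Among the genes with the largest differences, those more negative in Ptpn2-null cells were Ifi205 (-3.11), Ppm1e (-3.08), Ly6a (-3.01), Kank4 (-2.93), Dhrs3 (-2.46), Cxcl11 (-2.42) and Zfp536 (-2.39). Zfp536 rose with either guide, by 1.10 in Ptpn2-null cells and 3.49 in control cells. Those more positive were Batf3 (1.89), a transcription factor of dendritic cells, Hspa1b (1.95), an inducible heat shock protein with a near-identical copy, Mcf2l (2.08), Shroom3 (2.09), Ppp1r16b (2.16), Tmem74 (2.49), Adam8 (2.63) and Emp1 (2.76). Hspa1b and Batf3 were at 2.06 and 2.0 in Ptpn2-null cells and 0.11 and 0.11 in control cells. Tmem74 was not called in Ptpn2-null cells (0.64) and fell in control cells (-1.85). The call of Shroom3 ended without control IFNg replicate 1, at 1.87.

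Among other named genes, the difference was -0.93 for Cxcl9, -1.25 for Cxcl10, -0.45 for Ccl5, -0.73 for Relb, -0.36 for Zbp1, -0.49 for Mki67 and -1.35 for Mitf. It was -0.44 for Casp4, a call that ended without control IFNg replicate 1, at -0.37. It was positive for Socs1 (0.51), Socs3 (0.62) and Trib3 (0.73).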

How the results depend on the processing

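The count of 7237 genes called on adding TNFa was 6901 with DESeq2, 7222 with RLE size factors and 7186 with no filter. It was 6717 with only the compared groups, 6875 with the length trend removed, and 6364 to 7017 with 1 library left out. The 1295 genes differing between guides ranged from 1095 to 1229 with 1 library left out, and numbered 1518 with the length trend removed and 1164 with DESeq2. The 3210 genes differing with IFNg ranged from 2883 to 3181 with 1 library left out and numbered 3530 with the trend removed.

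The length trend of -0.381 was -0.288 with no filter, -0.0155 with the trend removed, -0.0156 with the trend removed and a replicate block, and -0.403 to -0.321 with 1 library left out, the smallest being without replicate 1 with both cytokines.

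Directions of some small changes in genes named by rule turned. With the trend removed, without and with the block, Casp8 was at -0.0269 and -0.0273, Dnajc3 at 0.119 and 0.119, Map3k7 at 0.158 and 0.158, Trim25 at 0.117 and 0.117, and Zbp1 at -0.123 and -0.123. With 1 library left out Casp8 was at -0.0101 (without replicate 2 with both cytokines) to 0.0792, and Zbp1 at -0.0103 to 0.0333. Zbp1 was at -0.00338 with no filter, -0.0061 without replicate 1 with both cytokines and -0.0103 without replicate 2 with IFNg. The causes were not tested. Over all alternatives 123 values of genes named by rule lost a call in the same direction, and 1 gained one in the same direction (Tmem74, 0.94 without replicate 1 with both cytokines). Another 14 turned and 3397 did none of these. Of those that turned, with the trend removed, Trim25 also lost its call and Zbp1 gained one. Other list members named in the text are not in these counts, and some of them gained a call or turned with the trend removed, as given beside their results.

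Whether libraries with the same replicate number share more than the number was not tested. With group means subtracted, same-numbered libraries correlated at 0.0906, 0.0360 and 0.0263, and differently numbered ones at -0.0698 to 0.0466. Replicates 1 and 2 with both cytokines correlated best with the IFNg replicate of the same number, and replicate 3 with IFNg replicate 2 (0.0466). With a replicate block 7215 genes were called, 1291 differed between guides and 3173 with IFNg. With only the compared groups, 7084 were called with the block and 6717 without it. The block ended the calls of Map3k7 (edgeR adjusted p = 0.0537) and Trim25 (0.0578), and of no other gene named by rule.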
